A study of Mus musculus with 2 samples.

Results

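Ubiquitin-specific proteases, encoded by the Usp genes, were read here in immature T cells, wild type or knockout for the transcription factor Miz-1. Members were the probe sets annotated with a single symbol made of Usp, a number and optional letters. Usp18 and Usp9y were left out. The rule found 124 probe sets of 48 genes, among 34945 named probe sets of 18193 genes. One of the 48, Usp6nl, matches by its letters only: it encodes a TBC domain GTPase-activating protein of Rab proteins and no protease.

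Ubiquitin-specific proteases are cysteine proteases that cut ubiquitin from proteins or trim ubiquitin chains. By doing so they oppose ubiquitin ligases: some spare a protein from the proteasome, and others reset signals carried by ubiquitin on histones, DNA repair factors, membrane receptors and signalling adaptors. They form the family with the most members among the deubiquitinases, and in T cells several are known to act in antigen receptor signalling and in thymocyte maturation.

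Expression was measured on 2 oligonucleotide arrays, 1 for Miz1 knockout thymocytes and 1 for wild-type thymocytes. Both came from the C57BL/6 background and were sorted as lineage-negative, CD44-negative and CD25-positive cells, the DN3 stage, when the beta chain locus of the T cell receptor undergoes recombination. The knockout allele lacks the POZ domain of Miz-1, the part that binds partner proteins. The study asked how DN3 expression depends on Miz-1. The number of animals behind each array, their age and any Cre line are not stated in the labels.

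With 1 array per genotype there is no error between animals and no test of genotype, and every difference below is described by its size alone. Values are signal intensities on a linear scale. Signals below a floor of 394, the median of all non-control values, were raised to it before the log2 ratio of knockout over wild type was taken. A gene was read by the probe set with the highest mean signal and called measured where that mean was above the floor. Where 1 of the arrays was below the floor, the difference, as a fold or on the log2 scale, can only be a minimum and is given with the words at least. In bulk samples, fewer cells of a type and less RNA per cell cannot be told apart.

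All 9 named DN3 markers were measured, among them Rag1 (34741 in knockout cells and 45865 in wild-type cells) and Il2ra (23018 and 4992). Zbtb17, the targeted gene, read 1361 and 3042. Its second probe set (609.8 and 47.6) went the other way with a mean below the floor. The signals of 10 named myeloid markers, 4 of them measured, summed to 10372.5 and 3377.5. This difference was carried mostly by Lyz1 (4549 and 555) and Lyz2 (2646 and 736). The median log2 ratio of the 4 measured was 1.52, with 3 higher and 1, Adgre1, at -0.05. The 6 named B cell markers summed to 15715 and 31388, a difference carried by the brightest probe set of Ighm (11340.0 and 28208). The log2 ratios of the 5 measured Ighm probe sets ranged from -1.31 to 0.54. Of the 5 measured B cell markers, 3 were higher and the median was 0.54. Pax5 was below the floor on both arrays. Stromal and erythroid markers, 7 named, summed to 15470.1 and 6438, mostly by Pdgfrb (8455 and 1839.8), and 4 of the 5 measured were higher (median 0.69). The 6 named markers of double positive and mature T cells summed to 1980.3 and 1938, with Klf2 at 1051 and 162 and Cd8b1 at 36.8 and 679. Itgam, S100a8 and Cd4 were below the floor on both arrays. Xist, transcribed in female cells, read 55300.0 and 423, so sex and genotype cannot be told apart. The part of these cells and of sex in the results on Usp genes was not tested.

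Promoter sequence is shown for 3 members, since the series alters a promoter-binding factor. No motif of Miz-1 itself was searched. Usp12 was the member read past 2-fold by its brightest probe set, Usp6nl is a measured member without protease activity, and Usp26, a germline gene below the floor on both arrays, was chosen afterwards as a contrast. Each stretch runs 5′ to 3′ from 250 bases before to 50 bases after the gene's start, from RefSeq on GRCm38.p6. Capitals mark the GC box GGGCGG, which SP family factors bind, and the CCAAT box, which NF-Y binds, on either strand (CCGCCC and ATTGG on the other).
Usp12 (chr5:146794907-146795206, minus strand): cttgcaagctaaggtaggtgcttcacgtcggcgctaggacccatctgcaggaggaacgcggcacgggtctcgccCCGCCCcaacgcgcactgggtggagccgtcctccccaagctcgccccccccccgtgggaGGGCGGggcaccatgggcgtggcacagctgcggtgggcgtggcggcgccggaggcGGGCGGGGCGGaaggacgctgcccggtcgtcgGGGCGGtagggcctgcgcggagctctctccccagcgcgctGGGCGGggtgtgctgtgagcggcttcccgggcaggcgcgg
Usp6nl (chr2:6322507-6322806, plus strand): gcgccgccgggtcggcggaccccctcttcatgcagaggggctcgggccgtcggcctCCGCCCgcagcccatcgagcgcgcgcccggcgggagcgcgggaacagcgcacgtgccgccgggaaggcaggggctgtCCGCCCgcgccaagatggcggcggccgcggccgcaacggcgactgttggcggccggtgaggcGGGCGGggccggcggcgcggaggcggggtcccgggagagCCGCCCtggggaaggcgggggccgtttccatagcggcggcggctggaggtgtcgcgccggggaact
Usp26 (chrX:51801184-51801483, minus strand): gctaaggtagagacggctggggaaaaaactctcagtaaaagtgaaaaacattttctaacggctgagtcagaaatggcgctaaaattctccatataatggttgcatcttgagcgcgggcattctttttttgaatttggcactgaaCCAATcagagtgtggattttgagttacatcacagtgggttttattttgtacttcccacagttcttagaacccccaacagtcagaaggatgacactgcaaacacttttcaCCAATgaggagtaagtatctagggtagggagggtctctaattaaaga
The Usp12 stretch holds 6 GC boxes, 2 of them overlapping, and 37 CpG dinucleotides, while that of Usp26 holds no GC box, 2 CCAAT boxes and 5 CpG dinucleotides.

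Usp promoters held more CpG dinucleotides than promoters at large, as a description of the reference sequence. RefSeq stretches were available for 37 of the 48 genes, 38 stretches in all because Usp6nl has 2. Their median CpG count was 27.5, against 13 over the 21262 promoters of protein-coding genes in the table, and their median GC content was 65.0% against 56.3%. Over all 32851 promoters, noncoding genes included, the median CpG count was 7. A GC box was in 26 of 38 (68.4%, against 46.2% of promoters of protein-coding genes and 35.7% of all) and a TATAAA box, on either strand, in 2 (5.26%, against 12.6% and 13.6%). CCAAT was in 10 (26.3%, against 38.2% and 37.4%). The E-box CACGTG, bound by MYC with its partner MAX, was in 5 (13.2%, against 7.84% and 7.15%): 1 of the Usp6nl stretches, Usp31, Usp4, Usp32 and Usp16. By their brightest probe sets, 3 of these 5 genes were higher in the knockout (Usp31, Usp32 and Usp16) and 2 lower (Usp4 and Usp6nl). Among the 32 stretches of measured Usp genes the median CpG count was 33, and among the 6 stretches of Usp genes not measured it was 5. The same split was not made over all genes, so it cannot be called a trait of this family. A motif match is a description of letters in this window only.

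Usp genes as a family showed no common shift between the arrays. Of 48 genes, 39 were measured, and 20 of these were higher in the knockout and the other 19 lower. Their median log2 ratio was 0.04, beside 0.00 for all 10770 measured genes, and it was between -0.04 and 0.00 after median centring, quantile or loess normalization, so its sign carries no direction. Only Usp12 was at least 2-fold higher (1 of 39), where 7.23% of all measured genes were. None of the 39 was 2-fold lower or beyond, where 5.65% of all measured genes were. In either direction that makes 1 gene past 2-fold, beside 12.9% of all measured genes. Within 1.5-fold lay 27 of the 39 (69.2%), beside 62.9% of all measured genes. The middle of the family spanned -0.43 to 0.32 by quartiles, and that of all genes -0.44 to 0.45.

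**Figure D1:**
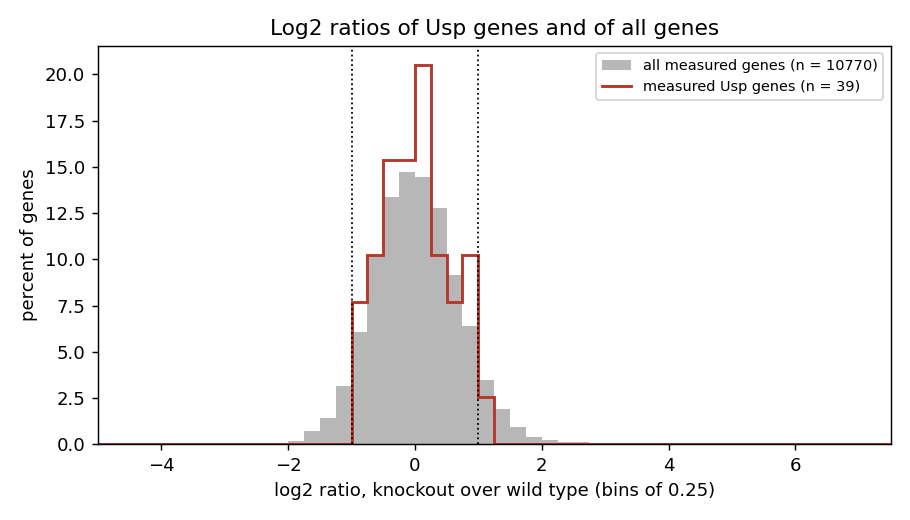
Histogram of log2 ratios of knockout over wild type, in bins of 0.25, for all 10770 measured genes (grey) and the 39 measured Usp genes (red line), each as percent of its genes; dotted lines mark 2-fold. The Usp genes lie between -0.98 and 1.01, the last being the minimum for Usp12, while all genes reach from -4.55 to 7.03.

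The single member past 2-fold rests on a dim probe set. Usp12, which works with the activator UAF1 and is known to act in T cell receptor signalling, read 791 in knockout cells and 114 in wild-type cells, at least 2.01-fold higher. Its other 2 probe sets had means below the floor, 21.3 against 409.9 and 70.4 against 44.6, so neither repeats the difference. Just outside the 2-fold limit were Usp2 (1.98-fold lower), Usp30 (1.95-fold higher), Usp39 (1.92-fold lower) and Usp49 (1.88-fold higher). Median centring, quantile and loess normalization each left no Usp gene 2-fold higher, where 6.71%, 6.24% and 6.35% of all measured genes were, and 1, Usp2, 2-fold lower, where 6.17%, 6.42% and 6.34% were. Between 1.5-fold and 2-fold there were 6 higher members and 5 lower ones.

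**Figure D2:**
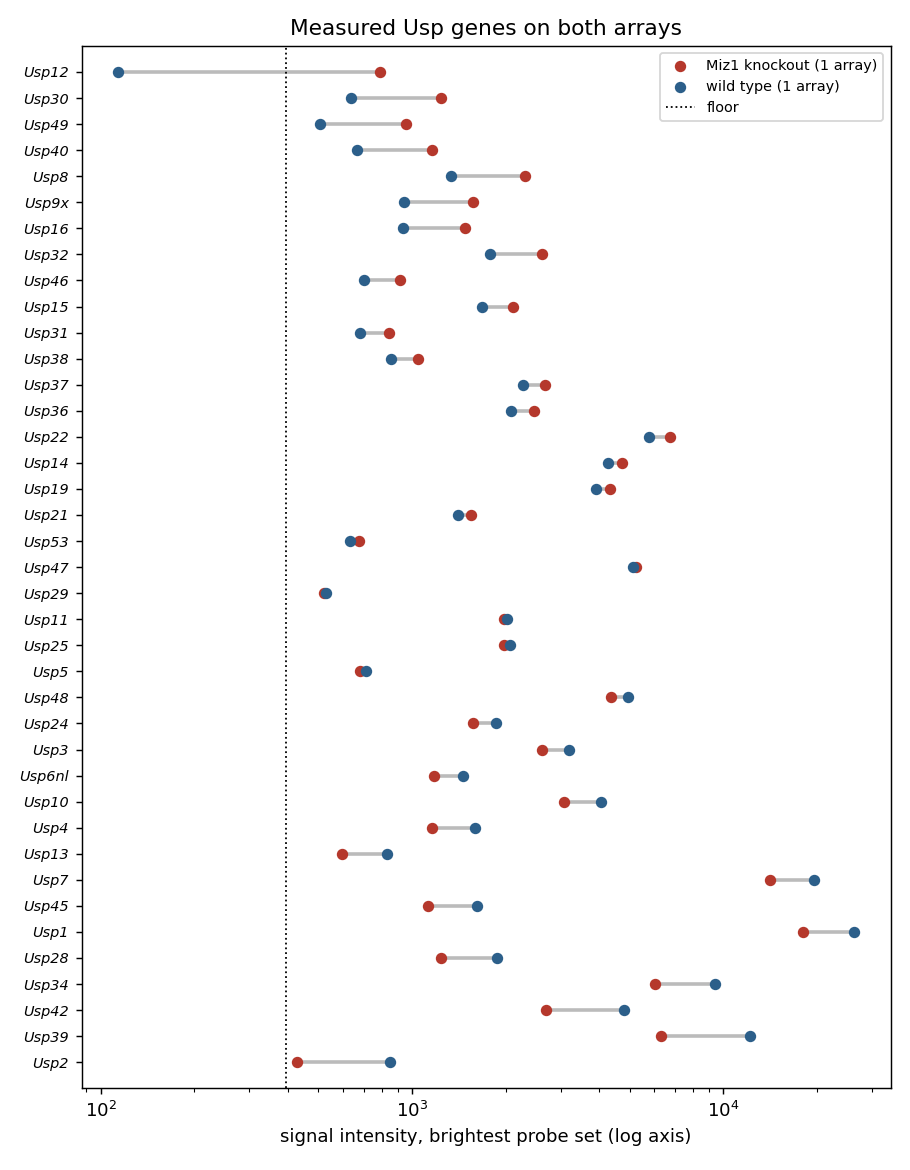
Signal intensity (log axis) of the brightest probe set of each of the 39 measured Usp genes on the knockout array (red) and the wild-type array (blue), ordered by ratio; the dotted line is the floor of 394. Most pairs lie close together, and Usp12 at the top is the one whose wild-type signal, 114, is under the floor.

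By their brightest probe sets, the 4 genes listed for p53 or its ligase MDM2 were read lower in the knockout, none by 2-fold. The list is not complete: Usp15, given below with signalling genes, also acts on MDM2 and was read higher, and Usp7 had no settled direction. Usp2, which acts on MDM2 and cyclin D1, read 428 in knockout cells and 847 in wild-type cells (log2 ratio -0.98). Usp42, which removes ubiquitin from p53, read 2697 and 4797 (-0.83), and its second probe set was below the floor on both arrays. These 2 genes stood on 1 measured probe set each, and the second Usp2 probe set (553 against 85.0) went the other way with a mean below the floor.

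Usp7, which deubiquitinates both MDM2 and p53, had 6 measured probe sets that did not share a sign. The brightest read 14094 in knockout cells and 19589 in wild-type cells (-0.47), and the next 4426 and 6171 (-0.48). The other 4 had log2 ratios of 0.03, -0.06, 0.92 and 0.40. After quantile and loess normalization the brightest was at -0.21 and -0.18. The mean over the measured probe sets was 0.06, above 0 where the brightest was below it. Usp10, a cytoplasmic p53 deubiquitinase, read 3069 and 4045 (-0.40) on its 1 probe set. Of the proteins these enzymes handle, Mdm4, the MDM2 relative that inhibits p53, was 2.75-fold higher (2921 and 1061), although 1 of its 3 measured probe sets had a log2 ratio of -0.80. Mdm2 read 2875 and 1825 (0.66), and 2290 and 2310 (-0.01) on its second measured probe set.

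Of the members known for MYC, cyclins and the mitotic checkpoint, none of the 3 measured passed 2-fold. Usp28, which protects MYC from the ligase subunit FBXW7, read 1239.6 in knockout cells and 1871 in wild-type cells (-0.59). Usp36, a nucleolar enzyme that also acts on MYC, read 2459 and 2083 (0.24), and its second measured probe set gave 0.41. Usp37, which stabilises cyclin A, read 2681 and 2265 (0.24), with 0.34 from its second probe set. Both Usp36 and Usp37 were thus repeatable within the pair of arrays at a size under 1.5-fold. Usp44, known for the spindle checkpoint, was below the floor on both arrays (62.7 and 129). Fbxw7 itself read 2551 and 2154 (0.24).

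Of 5 measured genes in the list of histone deubiquitinases, 4 were read higher in the knockout and 1 lower, none by 2-fold. Usp48, which also acts on H2A, stands with the DNA repair genes below and was read lower. Usp49, which acts on histone H2B, read 953 in knockout cells and 507 in wild-type cells (0.91), but its second measured probe set gave 0.18. Usp16, which removes ubiquitin from histone H2A, read 1483 and 935 (0.67). Usp21, another H2A enzyme, read 1551 and 1406 (0.14).

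Usp22, the catalytic subunit of the SAGA deubiquitinase module, showed opposed probe sets. It read 6740.2 in knockout cells and 5782 in wild-type cells (0.22) on the brighter one and 45.5 and 1208, at least 3.07-fold lower, on the other. Of its module partners, Atxn7l3 had a log2 ratio of -0.79 on 1 probe set and Atxn7 ratios of 0.12 and 0.34, while the 3 measured Eny2 probe sets spread from -1.63 to 0.39, with -0.22 for the brightest. Usp3, an H2A enzyme, read 2621 and 3199 on its brightest probe set (-0.29), whereas its other 3 measured probe sets were higher in the knockout, at 0.77, 0.30 and 0.31. The direction of Usp3 therefore turns with the choice of probe set, to 0.27 for their mean. Usp27x, an X-linked relative of Usp22, was below the floor on both arrays.

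UAF1 partners split. Usp1, which with UAF1 removes ubiquitin from FANCD2 and PCNA, read 17983 in knockout cells and 26232 in wild-type cells (-0.54), and its other 2 measured probe sets were lower as well, at -0.20 and -1.30. By its brightest probe set, Usp1 was at -0.19 after quantile and -0.20 after loess normalization, so the size depends on the scaling. It is 1 of 2 genes with several measured probe sets of which all were below 0, Usp39 being the other. The relatives of Usp1 went the other way on their brightest probe sets: Usp12 as given above, and Usp46, which read 912 and 699.5 (0.38). The second measured Usp46 probe set was at least 2.03-fold lower (312 and 799), so its sign is not settled.

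The UAF1 gene Wdr48 read 2629 in knockout cells and 1456 in wild-type cells (0.85), with its other 2 measured probe sets at 0.28 and -0.02. The substrate genes of Usp1 were lower, beside Usp1 itself: Fancd2 read 512 and 1195, 2.33-fold lower, Fanci, the partner of FANCD2, 687 and 1978, 2.88-fold lower, and Pcna 27311 and 47896 (-0.81). Fancd2, Fanci and Pcna stood on 1 measured probe set each. Among 18 measured partner genes, Fancd2 and Fanci were the 2 past 2-fold on the lower side (background 5.65%), and Mdm4 was the 1 past it on the higher side (background 7.23%). Their median was -0.12.

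Of the remaining members of DNA repair, 3 differed little and Usp45 was lower by 1 of 2 measured probe sets. Usp11, an X-linked enzyme of the BRCA2 pathway, read 1971 in knockout cells and 2024 in wild-type cells (-0.04). Usp47, which acts on DNA polymerase beta, read 5245 and 5111 (0.04), and its second measured probe set gave 0.07. Usp48, an H2A enzyme that opposes BRCA1, read 4354 and 4939.5 (-0.18), with 0.15 and 0.02 from its other probe sets. None of the measured probe sets of these 3 genes differed by more than 1.13-fold. Usp45, which acts on the repair nuclease subunit ERCC1, read 1123 and 1622 (-0.53) on a probe set of shared sequence and 0.04 on its other one.

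Enzymes of the proteasome and of free ubiquitin chains stayed within 1.5-fold by their brightest probe sets. Usp14, which trims chains on the proteasome, read 4736 in knockout cells and 4255 in wild-type cells (0.15), while its 4 probe sets ranged from -0.49 to 0.93. Usp5, which takes apart unanchored chains, read 682 and 714 (-0.06), and its paralog Usp13 read 598 and 829.5 (-0.47). Usp5 and Usp13 rested on 1 measured probe set each.

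By their brightest probe sets, the 4 measured members of cellular membranes were read higher in the knockout, again none by 2-fold, but probe sets opposed one another for 2 of them, Usp30 and Usp19. Usp8, an endosomal enzyme that acts with the ESCRT machinery and is needed for thymocyte maturation, read 2314 in knockout cells and 1339 in wild-type cells (0.79), and its second probe set, 1096 and 590.1, gave 0.89. Usp32, known from Golgi and late endosomes, read 2619 and 1783 (0.55), with 0.86 from its second measured probe set. Both genes were repeated by separate probe sets on the same pair of arrays. The STAM proteins bind Usp8 at endosomes, and the 2 measured Stam probe sets had log2 ratios of -0.85 and -0.18, while the 3 measured Stam2 probe sets had both signs.

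Usp30, a mitochondrial enzyme that opposes parkin, was read both ways. It read 1240.0 in knockout cells and 636 in wild-type cells (0.96) on its brighter probe set, and 179 and 748, at least 1.90-fold lower, on the other. Usp19, which has a form anchored in the endoplasmic reticulum, read 4334 and 3903 (0.15), but its second measured probe set was 2.70-fold lower (650.0 and 1753). The mean over the measured Usp19 probe sets was -0.64. For Usp30 the mean, 0.02, includes a value set by the floor and gives no level of its own. Usp20 was below the floor on both arrays by all 4 of its probe sets, and its relative Usp33, with 65.8 and 662, had a mean under the floor.

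Among members of receptor and adaptor signalling, 4 of 7 were higher and 3 lower, none by 2-fold. Usp9x, an X-linked enzyme known to act in T cell receptor signalling, read 1572 in knockout cells and 946 in wild-type cells (0.73). All 5 of its measured probe sets were above 0, from 0.06 to at least 1.02, the wild-type signal being under the floor for 2 of them. The animals differ in sex, as Xist shows, and the part of sex in the Usp9x ratio was not tested. The median of all 314 measured X-linked genes was -0.05. Of these, 19 were past 2-fold on the higher side and 14 on the lower, Xist not counted (background 7.23% and 5.65% of all measured genes). Usp34, which acts on axin in WNT signalling, read 6016 and 9416 (-0.65), and its second measured probe set gave 0.09.

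Usp4 and its paralog Usp15, both enzymes of TGF-beta signalling, had opposite signs by their brightest probe sets. Usp4 read 1157 in knockout cells and 1591 in wild-type cells (-0.46), but its second probe set, 1617 and 880.1, gave 0.88, so that pair does not differ in a settled way. Usp15 read 2109.9 and 1680.3 (0.33), and its second measured probe set was at least 1.59-fold higher. Usp25, which acts on TRAF adaptors and is a relative of Usp28, read 1979 and 2061 (-0.06), with 0.16 from its second.

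Usp31, known from NF-kB signalling, read 846 and 682 (0.31), and its second measured probe set (131 and 784) was at least 1.99-fold lower. Usp38 read 1049 and 853 (0.30) on its 1 probe set. Usp18, which cuts the interferon-induced modifier ISG15 and was left out by the rule, read 4064 and 641, 6.34-fold higher.

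**Figure D3:**
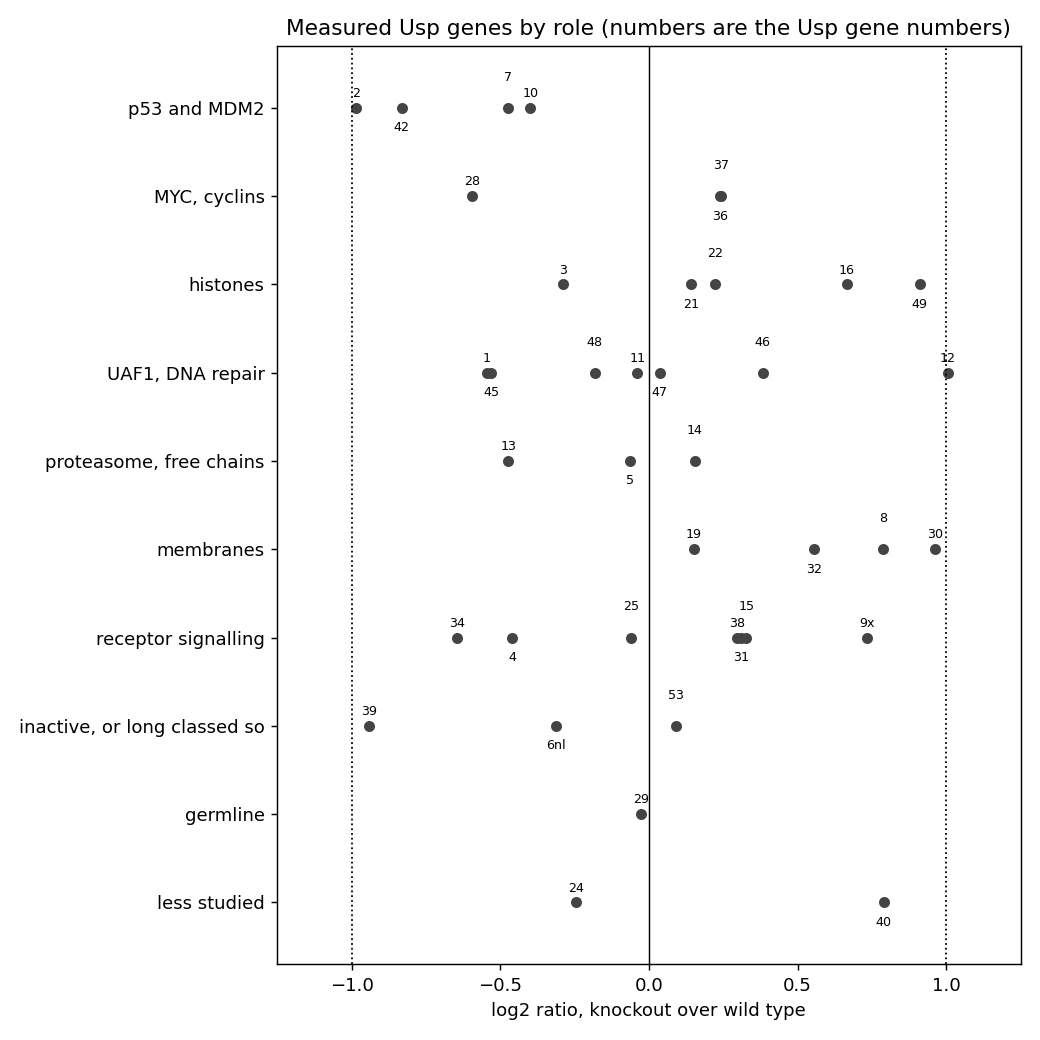
Log2 ratio of knockout over wild type for the 39 measured Usp genes by their brightest probe sets, in rows by role; each point is 1 gene labelled with its number, and dotted lines mark 2-fold. All 4 genes of the p53 and MDM2 row lie below 0, all 4 of the membrane row lie above 0, and the other rows with at least 2 genes hold both signs. The rows were set with earlier results of these data known. Measured probe sets of Usp7, Usp19 and Usp30 have both signs. Usp15 (0.33), which also acts on MDM2, stands in the signalling row.

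Of the 3 measured members that are no proteases or were long classed as inactive, Usp39 differed most. Usp39, a subunit of the spliceosome that lacks protease activity, read 6326 in knockout cells and 12146 in wild-type cells (-0.94), 1.92-fold lower, and 2199.8 and 3240.1 (-0.56) on its second probe set. Its brighter probe set is marked as able to bind shared sequence, and the second one is not. Sart3, a splicing factor that also binds Usp15 and Usp4, read 1964 and 3340 (-0.77).

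Usp53, long classed as inactive, read 675 and 633 (0.09), and Usp54 was below the floor on both arrays. Usp6nl read 1172 and 1455 (-0.31), while its other 2 measured probe sets were at least 2.04-fold lower and 1.52-fold higher. Leaving Usp6nl out, the median of the remaining 38 genes was 0.06.

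Of the less studied members, Usp40 read 1155 in knockout cells and 668 in wild-type cells (0.79), while its other 3 measured probe sets gave 0.07, -0.02 and, with 1 array under the floor, at least 1.23. Usp24 read 1572 and 1863 (-0.24), with 0.11 and -1.13 from its other measured probe sets. Usp43 had a mean below the floor, with 637 and 31.9 on the brighter of its 2 probe sets. Germline members were dim: Usp29, an imprinted gene, was measured at 521 and 529.9 (-0.02), whereas Usp26 and Usp50 were below the floor on both arrays. Usp17la, which stood in the same list but is not called a germline gene here, was also below the floor on both arrays. In all, 9 Usp genes were not measured, 7 of them below the floor on both arrays by every probe set and 2, Usp33 and Usp43, above it on 1 array.

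Agreement between probe sets of 1 gene set the limit for reading these ratios. Of 26 Usp genes with at least 2 measured probe sets, 16 (61.5%) had probe sets of both signs, 8 had all above 0 and 2 had all below 0. Over all genes with several measured probe sets, 52.1% had both signs. The root mean square SD within a gene was 0.65 for these 26 genes and 0.57 for 4514 genes in all. Of the 39 measured Usp genes, 29 had a log2 ratio smaller in size than 0.65. This spread covers noise and transcript differences within 1 pair of arrays, and nothing between animals.

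At the level of probe sets, 82 of 124 Usp probe sets were measured, and 9 of them (11.0%, where 13.4% of all measured probe sets were) passed 2-fold. Higher by at least 2-fold were 3 (background 7.76%), of Usp12, Usp40 and Usp9x. Lower by at least 2-fold were 6 (background 5.68%), of Usp1, Usp19, Usp22, Usp24, Usp46 and Usp6nl. These 9 belong to 9 different genes, 8 of them are not the brightest of their gene, and 6 have 1 array under the floor. Those with both arrays above the floor were of Usp1 (1233 and 3039), Usp19 and Usp24 (539 and 1183). No Usp gene had 2 probe sets counted past 2-fold. A second Usp9x probe set (787 and 333, the wild-type array under the floor) was at least 1.997-fold higher and may be past it.

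**Figure D4:**
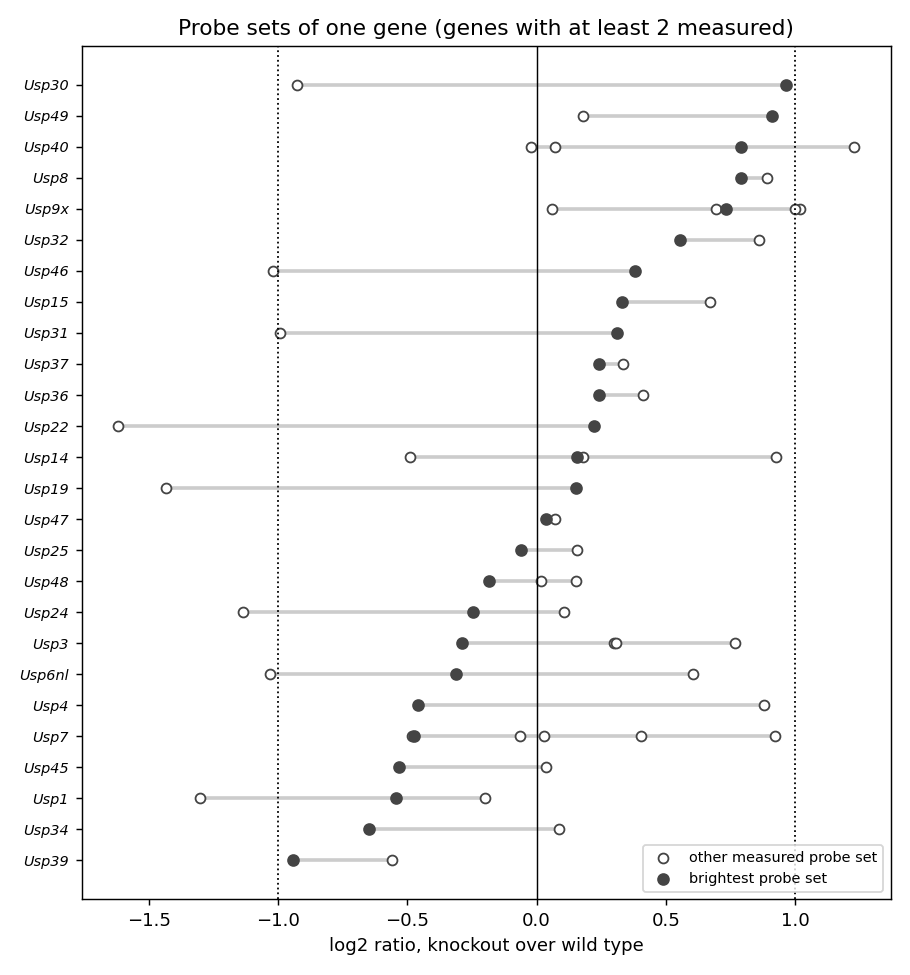
Log2 ratio of knockout over wild type for each measured probe set of the 26 Usp genes with at least 2; filled points are the brightest probe set, open points the others, grey bars the range, and dotted lines 2-fold; a value with 1 array under the floor is drawn at its minimum size. Usp8, Usp36, Usp37 and Usp47 have close probe sets, while those of Usp22 and Usp30 lie at least 1.84 and 1.89 apart.

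Deubiquitinase genes outside the rule had no common shift either. From a list of other families and of USP-fold genes with other names, 34 were named and 30 measured, with a median log2 ratio of -0.02. Of these, 1 was past 2-fold on the higher side and 3 on the lower side (background 7.23% and 5.65%). Zup1, which cuts lysine-63-linked chains, was 2.50-fold higher (2262 in knockout cells and 904 in wild-type cells). Mpnd, a JAMM domain gene, was 3.23-fold lower (1606 and 5187), Otud5, an X-linked OTU family gene, 3.17-fold lower (1228 and 3893), and Uchl5, a proteasome-bound enzyme, 2.01-fold lower (3186 and 6405). The other 2 measured Otud5 probe sets gave -0.37 and 0.37, and the second Uchl5 probe set was at least 1.31-fold lower. Cyld, a deubiquitinase with a USP fold that limits NF-kB signalling, had a log2 ratio of -0.09 by its brightest probe set and of 0.20, 0.59 and 0.80 by the other 3. Uspl1, which cuts SUMO, had one of 0.46.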

How the data were processed

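RNA of sorted thymocytes was amplified and biotin-labelled by in vitro transcription, per the labels' protocols. The authors deposited 1 signal intensity per probe set and array on a linear scale, and GCOS 1.4 is named in the submitters' processing notes, with settings not given in the sources used here. Both arrays had a trimmed mean of 1000.0 after removing 2% at each end, which shows a common scaling before deposit. Of 45101 probe sets, 64 controls were left out, and 51.6% (knockout) and 48.4% (wild type) of the rest were above the floor. Probe sets were named from the supplied platform annotation with symbols updated through RefSeq identifiers (GRCm38.p6), which matched all 48 Usp genes. Another 4 probe sets name a Usp gene with a second gene and were not used.

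Ratios were computed in Python 3.11.15 with pandas 2.3.3, and loess (span 0.4) with statsmodels 0.14.6. The ratio step was tested on simulated data, with changes larger than 2-fold placed only in genes well above the floor. That test therefore does not cover dim genes such as Usp12 or ratios close to 2-fold. Every measured Usp gene is named; partners and other deubiquitinases are named past 2-fold or beside a Usp gene. The members and lists were chosen with earlier results of these data known. Ubiquitin genes were listed too, but none had a probe set with a single symbol. A list of interferon genes, chosen because they move on these arrays, was used for Usp18 only. The number of arrays limits the precision. Alternatives were other scalings, floors, probe set rules and member lists. Probe sets of shared sequence were taken as those with the suffix _s_at, _x_at or _a_at. The Usp4 probe set left out by this rule ends in _a_at. Whether such sequence is shared between genes or only between transcripts of a gene was not examined.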

Additional observations from a re-analysis of the deposited data

How the results depend on the processing

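No paired analysis was possible because each genotype has 1 array. The family median stayed between -0.04 and 0.12 in 9 alternatives. The count of Usp genes at least 2-fold higher was 0 after median centring, quantile or loess normalization and with a floor at the 60th percentile, and 5 of 46 with a floor at the 25th percentile (16.7% of all measured genes there, and 5.55% with the 60th). The count at least 2-fold lower was 1 after each of the 3 normalizations and 1 with the 25th percentile floor (13.9% of all). The 5 were Usp12 and, newly measured, Usp20, Usp43, Usp50 and Usp54, and the lower one was Usp33. Probe set counts, examined after seeing the data, were 1 higher after each of the 3 normalizations (6.57% to 7.18% of all measured probe sets) and 8, 8 and 9 lower (6.26% to 6.56%). They were 13 higher and 17 lower of 112 with the 25th percentile floor (18.1% and 14.8% of all), and 0 higher and 4 lower of 74 with the 60th (5.89% and 4.68%). The SD within a gene was 1.21 with the 25th percentile floor and 0.53 with the 60th, so it depends on how dim values are treated. Of 32 genes with a value in all 7 alternatives of scaling, floor and probe sets, 22 kept their sign in each, as did 6 of the other 7 genes in those that gave a value, and 7 of 266 values moved by more than the SD within a gene: Usp12 with the 25th percentile floor (2.74), Usp4 without probe sets of shared sequence (0.88), and Usp19, Usp22, Usp30, Usp4 and Usp46 with the mean of probe sets. The cause of these moves was not tested. A change of floor cannot turn the sign of a probe set. For the 13 Usp genes with 1 measured probe set, the probe set rules could only repeat the main value or give none. The count of kept signs is therefore no test in those settings. Usp30 counts as kept with a mean of 0.02, although its 2 measured probe sets had opposite signs.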
